A study of Mus musculus with 18 samples.

Results

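Cells that hold too much cholesterol export it, store it as ester or move it between compartments, and 10 genes of that system were described here in the liver of mice with an error-prone ribosome. They were chosen by name, as a list of cholesterol efflux and liver X receptor genes, by a rule that uses no measured value: *Nr1h3*, *Nr1h2*, *Abca1*, *Abcg1*, *Abcg5*, *Abcg8*, *Lcat*, *Scarb1*, *Soat2* and *Npc1*. The read counts list 22524 genes, among them all 10 of these. Liver RNA was sequenced from 10 A226Y mice and 8 wild-type (WT) mice, with 1 library per mouse. All 18 mice were C57BL/6 females aged 15 months.

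A226Y mice were heterozygous for an *Rps2* allele with an alanine-to-tyrosine change in ribosomal protein S2 of the small subunit, which lowers the accuracy of translation. The allele was made in embryonic stem cells of another strain, carries a transcriptional stop cassette between loxP sites, was backcrossed to C57BL/6 and was then crossed with the CMV-Cre deleter line. Excision of the cassette was never complete in such mice, so their livers are mosaic and some cells keep the silent loxP allele. WT mice expressed Cre recombinase and carried no mutated allele. Whether the sequenced A226Y mice still carried Cre is not stated.

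Liver X receptors are nuclear receptors that bind oxysterols, the oxidised derivatives of cholesterol, and act on DNA as heterodimers with retinoid X receptors. Their classic targets include the ATP-binding cassette transporters that pass cholesterol to high-density lipoprotein (HDL) or into bile, and genes of fatty acid synthesis. Their counterpart is SREBP-2, encoded by *Srebf2*, which raises cholesterol synthesis and uptake when sterols are scarce.

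Of the 10 genes, *Lcat*, which encodes the plasma enzyme that esterifies cholesterol on HDL, was the only one that passed the test in A226Y liver, and it fell by 0.20 on the log2 scale (624 against 717 CPM on average). The other 9 genes did not pass. Among them the largest differences were lower mean levels of the exporters *Abcg1*, *Abcg5* and *Abcg8* and a higher mean level of *Npc1*, each under 0.5 on the log2 scale. CPM is the number of reads of a gene set against the size of its library, after scaling between libraries. A gene was called changed at a Benjamini-Hochberg adjusted p under 0.05 in the edgeR quasi-likelihood test, which was fitted to all 13353 genes that passed a filter on low counts. All 10 genes passed that filter. That test called 1910 genes (14.3% of those tested, 7.27% higher and 7.03% lower), and 1 of the 10 genes described here, which was lower, is near that share. At an unadjusted p under 0.05, 6 of the 10 passed, 1 higher and 5 lower, against 29.6% of all genes tested. The median log2 fold change of the 10 was -0.08, and that of all tested genes was -0.0044.

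Totals ranged from 23850565 to 62126131 counts in A226Y mice and from 25869192 to 34918732 in WT mice. *Rps2* fell by 0.73 on the log2 scale in A226Y liver (68.6 against 114 CPM, adjusted p = 0.000772, edgeR). Over all genes, 971 were called higher and 939 lower; with scaling by library size only, 67.9% of 2059 calls were higher. The 10 hepatocyte markers, which define the labelled tissue, were all detected. A226Y mouse 29 stood apart in several of the genes below: its Kupffer cell and macrophage markers summed to 1583 CPM, the highest of all mice.

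**Figure D1:**
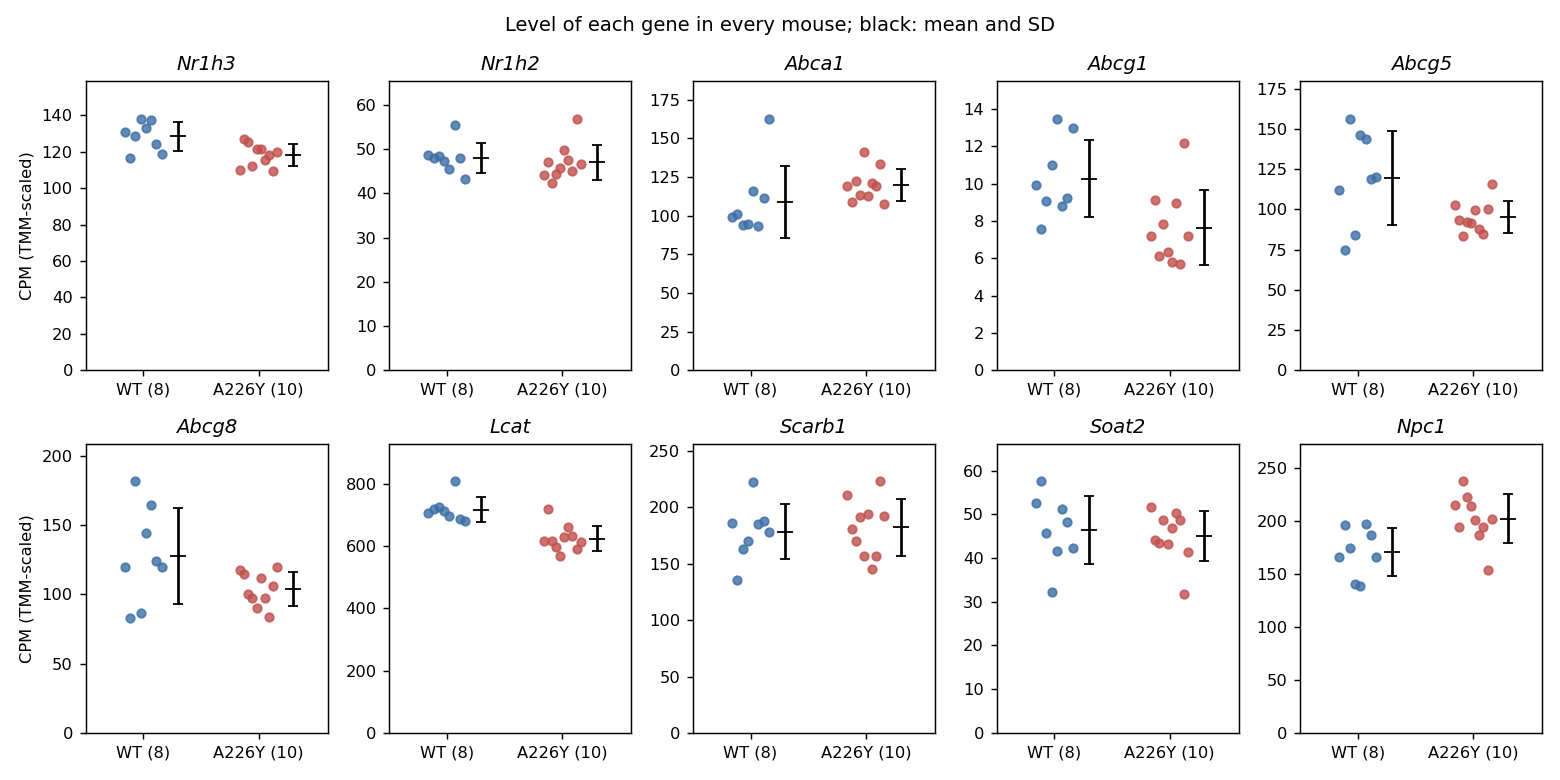
Level of each of the 10 genes in every mouse, in CPM after scaling (vertical axis, one scale per panel), for A226Y and WT; points are mice, and the black mark and bar are the mean and SD. Of the 10 A226Y mice, 9 lie below every WT mouse for *Lcat*, and the groups overlap for all 10 genes.

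Levels can be compared between genes only per length. In WT liver, per kilobase of all annotated exons of a gene, *Lcat* was highest with 534 CPM. It was followed by *Nr1h3* (51.1), *Abcg5* (44.1), *Abcg8* (34.1), *Scarb1* (21.01), *Soat2* (20.97), *Npc1* (15.1), *Nr1h2* (14.3), *Abca1* (10.5) and *Abcg1* (1.41 CPM per kilobase). Only the steps from *Lcat* to *Nr1h3* and from *Abca1* to *Abcg1* separated the ranges of the 8 WT mice. All other neighbours in this order overlapped. The order depends on the length used: per kilobase of the longest transcript, *Scarb1* had 57.7 CPM and stood above *Abcg5* (50.9) and *Abcg8* (34.9), and *Npc1* (29.6) and *Nr1h2* (24.03) stood above *Soat2* (21.02), while *Lcat* remained highest and *Abca1* (10.6) and *Abcg1* (1.76) lowest.

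The receptors come first. *Nr1h3* encodes LXRα, the form that is abundant in liver, and lies on chromosome 2, 91184061 to 91202834, on the minus strand (all coordinates are of GRCm38). *Nr1h3* ranged from 109.7 CPM (mouse 29) over a median of 119 to 127 in A226Y mice and from 116 (mouse 6) over a median of 129.7 to 138 in WT mice. All 10 A226Y mice lay below the WT mean and 4 lay below every WT mouse, but the groups overlapped. The means were 118 ± 6.13 CPM (SD, n = 10) and 128 ± 8.04 CPM (SD, n = 8). The log2 difference of -0.12 (SE 0.05, 95% interval -0.23 to -0.02) did not pass over all genes (adjusted p = 0.107, edgeR), while a two-sided exact permutation test of *Nr1h3* by itself gave p = 0.00852. DESeq2 gave an adjusted p of 0.0472, and with 4 surrogate variables the log2 difference was -0.06 (adjusted p = 0.660, edgeR). With an offset for transcript length it was -0.07 (adjusted p = 0.343, edgeR), and with an offset for GC content -0.06 (adjusted p = 0.483, edgeR).

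*Nr1h2* encodes LXRβ, the form found in most tissues (chromosome 7, 44549616 to 44553951, minus strand). It averaged 47.0 ± 4.05 CPM in the 10 A226Y mice and 48.0 ± 3.47 CPM in the 8 WT mice, with a log2 difference of -0.03 (95% interval -0.15 to 0.09, adjusted p = 0.749, edgeR). The ranges of 42.4 to 56.9 CPM and 43.3 to 55.4 CPM covered nearly the same span. Within a mouse the ratio of *Nr1h3* to *Nr1h2* counts averaged 2.52 in A226Y and 2.68 in WT liver (log2 difference -0.09). This ratio does not depend on scaling between libraries, and it did not differ beyond the spread between mice (two-sided exact permutation p = 0.200, 0.301 after adjustment over 3 ratios).

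Next are the transporters. ABCA1 loads cholesterol and phospholipid onto lipid-poor apolipoprotein A-I and so starts an HDL particle. *Abca1* (chromosome 4, 53030787 to 53159895, minus strand) ranged from 107 over a median of 119 to 141 CPM in A226Y mice and from 93.1 over a median of 100.2 to 163 CPM in WT mice. The WT group held both the lowest and the highest mice: WT mouse 33 had 163 CPM and the next WT mouse 116. The log2 difference was 0.14 (SE 0.10, 95% interval -0.06 to 0.34, adjusted p = 0.344, edgeR; two-sided exact permutation p = 0.118). Without WT mouse 33 the log2 difference was 0.24 with an adjusted p of 0.0215 (edgeR), so 1 mouse decides this call. With the length offset the log2 difference was 0.02 (adjusted p = 0.919, edgeR).

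*Abcg1*, whose product passes cholesterol to existing HDL particles and is strong in macrophages, was the lowest of the 10 genes, with 182 to 445 reads per mouse. It lies on chromosome 17, 31057675 to 31117988, on the plus strand, 6.3 megabases from *Rps2*. A226Y mice ranged from 5.67 over a median of 7.21 to 12.2 CPM (mouse 29) and WT mice from 7.57 (mouse 6) over a median of 9.60 to 13.5 CPM. Of the 10 A226Y mice, 6 lay below every WT mouse. The mean was 7.65 ± 2.01 CPM against 10.3 ± 2.07 CPM, a log2 difference of -0.43 (SE 0.15, 95% interval -0.73 to -0.12), and the adjusted p was 0.0539 (edgeR; two-sided exact permutation p = 0.0127). This value sits at the threshold: the adjusted p was 0.00752 without A226Y mouse 29, 0.0300 without WT mouse 6 and 0.0460 without A226Y mouse 5 (edgeR). It was 0.0306 in DESeq2, 0.0385 in limma-voom and 0.0302 with the length offset. It was 0.117 without WT mouse 21 (log2 difference -0.36), and with 4 surrogate variables, covariates estimated from the counts, the log2 difference shrank to -0.17 (adjusted p = 0.504, edgeR).

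Markers of Kupffer cells, the resident macrophages of the liver, are given beside *Abcg1*. The 12 markers summed to 420 to 1583 CPM in A226Y mice (median 564) and to 626 to 1193 CPM in WT mice (median 879), and none of the 12 was at 0 in every mouse. *Clec4f*, a Kupffer cell lectin, was the 1 marker of 12 called (log2 difference -0.65, adjusted p = 0.0261, edgeR), a share near the 7.03% of all tested genes called lower, and 10 of the 12 had a negative log2 difference. Without A226Y mouse 29, 8 of the 12 were called, where calls over all genes rose to 2560. Without A226Y mouse 5 (2011 over all genes) or WT mouse 6 (2504), 3 were called. Without WT mouse 24 (1310 over all genes) 2 were called and without WT mouse 14 (1255) 0. DESeq2 called 2 (2418 over all genes) and the fit with 4 surrogate variables 0 (50 over all genes). A226Y mouse 29 was the highest A226Y mouse for both the marker sum and *Abcg1*. The part of macrophages in the *Abcg1* difference was not tested, and in bulk liver fewer cells of a type and less RNA per cell cannot be told apart.

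ABCG5 and ABCG8 form a heterodimer on the canalicular membrane of hepatocytes that moves cholesterol and plant sterols into bile. *Abcg5* (chromosome 17, 84658234 to 84683011, minus strand) and *Abcg8* (84676302 to 84700333, plus strand) sit head to head, 59.9 and 60.0 megabases from *Rps2*. RefSeq gives *Abcg8* 2 starts. The one at 84683121 leaves a gap of 109 bases to the start of *Abcg5*, chr17:84683012-84683120 of GRCm38.p6, while the other, at 84676302, lies within *Abcg5*. The gap is printed on the plus strand because the levels of the pair followed each other:

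Abcg5-Abcg8 gap: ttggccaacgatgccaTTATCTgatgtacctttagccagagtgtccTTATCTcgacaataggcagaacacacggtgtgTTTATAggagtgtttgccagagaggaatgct

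Capitals mark AGATAA, the core of GATA factor sites, which occurs 2 times on the minus strand, and TATAAA, the TATA box core, 1 time. The TATAAA match is on the minus strand, that of *Abcg5*, but lies nearer to the start of *Abcg8*. Whether either gene uses it was not tested. Of 32851 RefSeq promoter windows of 250 bases before to 50 bases after a start, 11.2% and 13.6% hold these letters on either strand. AGGTCA, the half-site of many nuclear receptors, is not in the gap, and 16.3% of all windows hold it. The windows are longer than the gap, so these shares are not rates for a stretch of its length. The GC content of the gap is 45.9%.

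*Abcg5* ranged from 83.3 over a median of 92.8 to 116 CPM in A226Y mice and from 75.03 (mouse 6) over a median of 119.6 to 156 CPM (mouse 13) in WT mice. All 10 A226Y mice lay below the WT mean and 5 of 8 WT mice lay above every A226Y mouse, but WT mice 4 and 14 lay among the A226Y mice and WT mouse 6 below them. The mean was 95.2 ± 9.89 CPM against 119.6 ± 29.2 CPM, and the log2 difference of -0.33 (SE 0.12, 95% interval -0.58 to -0.08) gave an adjusted p of 0.0659 (edgeR; two-sided exact permutation p = 0.0394). Without WT mouse 6 the adjusted p was 0.0110, without WT mouse 14 it was 0.0361 (edgeR), and DESeq2 gave 0.0433 with all mice. Without WT mouse 13 it was 0.147 (log2 difference -0.27), and with 4 surrogate variables the log2 difference was -0.15 (adjusted p = 0.727, edgeR).

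*Abcg8* ranged from 83.8 over a median of 103 to 119.8 CPM in A226Y mice and from 82.9 (mouse 6) over a median of 122 to 182 CPM (mouse 13) in WT mice. Its log2 difference was -0.30 (SE 0.13, 95% interval -0.57 to -0.03, adjusted p = 0.121, edgeR; two-sided exact permutation p = 0.0811). Without WT mouse 6 the adjusted p was 0.0345, without WT mouse 13 it was 0.266 (log2 difference -0.21), and with 4 surrogate variables the log2 difference was -0.09 (adjusted p = 0.873, edgeR). The WT group spread more than the A226Y group for both genes, from 75.03 to 156 CPM against 83.3 to 116 CPM for *Abcg5*.

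The pair followed each other from mouse to mouse. Within WT mice Pearson's r of log2 CPM was 0.977 (exact permutation p = 0.000223, 0.00268 adjusted over 12 correlations) and Spearman's rho was 0.952 (exact permutation p = 0.00114, adjusted 0.0137). Within A226Y mice r was 0.777 (permutation p = 0.00806, adjusted 0.0484) and rho 0.794 (permutation p = 0.00892, adjusted 0.0535). Without the 2 mice farthest from the median of *Abcg5*, r was 0.940 in 6 WT mice and 0.832 in 8 A226Y mice, and the adjusted permutation p was 0.108 for both. The ratio of *Abcg5* to *Abcg8* counts averaged 0.916 in A226Y and 0.938 in WT mice (two-sided exact permutation p = 0.475, adjusted 0.475). Exons of the pair share 82 bases on opposite strands, so a small part of their reads may be counted for either gene.

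**Figure D2:**
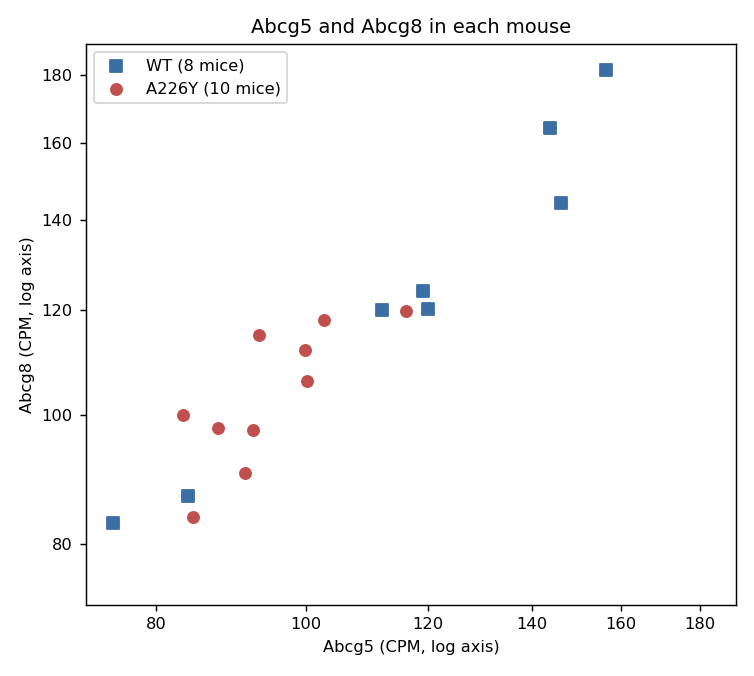
*Abcg8* (vertical axis) against *Abcg5* (horizontal axis), both in CPM on log axes; each point is a mouse, coloured by genotype. WT mice spread from 75.03 to 156 CPM of *Abcg5* and *Abcg8* rises with it, while A226Y mice lie between 83.3 and 116 CPM.

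The level of LXRα mRNA was then set against that of its transporter targets within each genotype. *Nr1h3* was compared with *Abca1*, *Abcg1*, *Abcg5* and *Abcg8* in each genotype, and *Srebf2* with *Abca1*. These 10 coefficients (Pearson's r) ran from -0.54 to 0.32, and none had an adjusted permutation p under 0.05 (lowest 0.580). With 8 or 10 mice a moderate correlation can be missed.

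The HDL enzyme and receptor follow. *Lcat* encodes lecithin-cholesterol acyltransferase, made by hepatocytes, and lies on chromosome 8, 105939551 to 105943382, on the minus strand. A226Y mice ranged from 569 over a median of 615 to 719 CPM (mouse 5), and WT mice from 681 over a median of 709 to 807 CPM (mouse 24). Of the 10 A226Y mice, 9 lay below every WT mouse, and only A226Y mouse 5 reached into the WT range. The mean was 624 ± 41.6 CPM (SD, n = 10) against 717 ± 39.5 CPM (SD, n = 8). The log2 difference was -0.20 (SE 0.06, 95% interval -0.32 to -0.08) with an adjusted p of 0.0243 (edgeR) and a two-sided exact permutation p of 0.00032. Of the 10 hepatocyte markers, 3 were called, all higher (*Apob*, *Cps1* and *Tat*), beside 7.27% of all tested genes called higher. The other 7 had no one direction, with *Ttr* at -0.22 and *Serpinc1* at -0.17 on the log2 scale, and the median of the list was 0.08. In DESeq2 5 were called (2418 over all genes) and with 4 surrogate variables 0 (50 over all genes). Only 1 was called without A226Y mouse 7 (1396 over all genes) or without WT mouse 14 (1255), 21 (1409) or 24 (1310). The call of *Lcat* was lost without WT mouse 24 (-0.18, adjusted p = 0.0529), with scaling by library size only (-0.16, 0.0837), with an offset for GC content (-0.14, 0.105) or transcript length (-0.13, 0.145), and with 4 surrogate variables (-0.14, 0.292), while the direction stayed negative.

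*Scarb1* encodes SR-BI, the hepatic receptor that takes up cholesteryl ester from HDL (chromosome 5, 125277087 to 125341094, minus strand). It averaged 182 ± 24.9 CPM in A226Y and 179 ± 24.7 CPM in WT mice, and the ranges of 145 to 223 and 136 to 223 CPM overlapped almost fully. The log2 difference was 0.03 with a 95% interval of -0.16 to 0.22 (adjusted p = 0.868, edgeR).

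Storage and intracellular transport come last. *Soat2*, also called ACAT2, makes cholesteryl ester in hepatocytes for lipoproteins and droplets (chromosome 15, 102150526 to 102163469, plus strand). It ranged from 31.7 (mouse 29) to 51.6 CPM in A226Y mice and from 32.3 to 57.5 CPM in WT mice, and the log2 difference of -0.04 had a 95% interval of -0.25 to 0.16 (adjusted p = 0.803, edgeR). *Soat1*, the enzyme of macrophages and most other cells, averaged 6.21 ± 1.602 CPM in A226Y and 8.28 ± 1.75 CPM in WT mice (log2 difference -0.42, adjusted p = 0.0568, edgeR). The ratio of *Soat2* to *Soat1* counts averaged 7.39 in A226Y and 5.62 in WT mice (log2 difference 0.39, two-sided exact permutation p = 0.102, adjusted 0.301). A226Y mouse 29 had the lowest ratio of all, 3.25, and without it the log2 difference was 0.53 with an adjusted exact permutation p of 0.0302.

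NPC1 is the lysosomal membrane protein that releases cholesterol taken up with lipoproteins. *Npc1* (chromosome 18, 12189692 to 12236400, minus strand) was the member with the largest positive log2 difference in the main test. It ranged from 154 (mouse 29) over a median of 202 to 237 CPM in A226Y mice and from 138 over a median of 170 to 197 CPM in WT mice, and 6 of 10 A226Y mice lay above every WT mouse. The mean was 202 ± 22.8 CPM against 171 ± 22.8 CPM, and the log2 difference of 0.25 (SE 0.09, 95% interval 0.07 to 0.42) gave an adjusted p of 0.0600 (edgeR; two-sided exact permutation p = 0.0122). The adjusted p was 0.0150 without A226Y mouse 29 and 0.0347 without WT mouse 6 (edgeR), 0.0360 in DESeq2 and 0.0230 with scaling by library size only. It was 0.121 without WT mouse 21 (log2 difference 0.21), 0.169 with the length offset (0.18) and 0.610 with 4 surrogate variables (0.10). With 4 surrogate variables *Scarb1* (0.145) and *Abca1* (0.143) had larger log2 differences than *Npc1*. The exons of *Npc1* share 511 bases with *Rmc1* on the opposite strand, out of 11317 bases of *Npc1* exon.

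**Figure D3:**
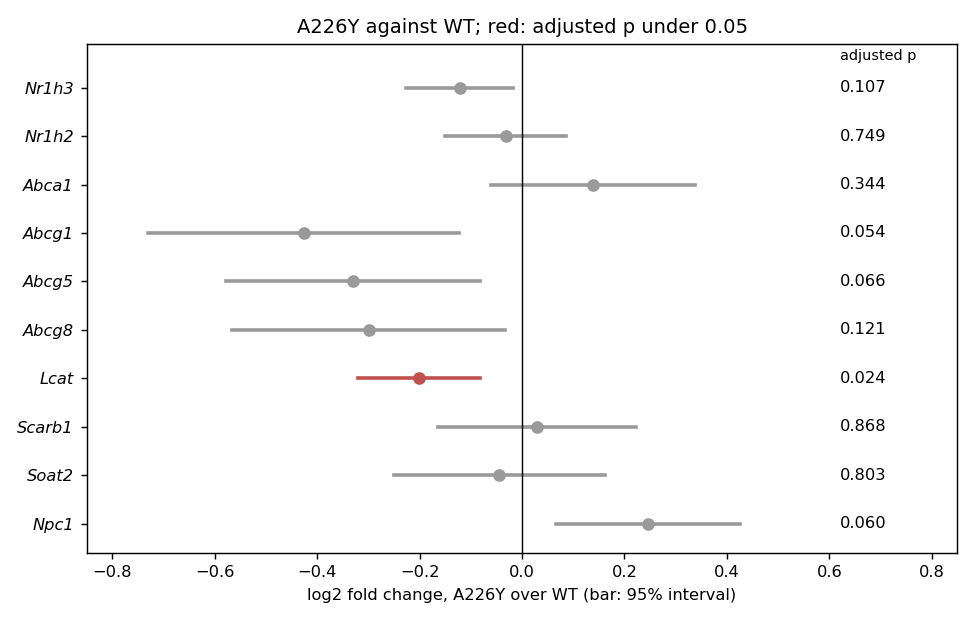
Log2 fold change of A226Y over WT for each of the 10 genes (horizontal axis), with its 95% interval as a bar and the adjusted p beside it; red marks an adjusted p under 0.05. *Lcat* is the only gene in red, and the intervals of *Nr1h3*, *Abcg1*, *Abcg5*, *Abcg8* and *Npc1* also leave 0 out although their adjusted p is 0.0539 or more.

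**Figure D4:**
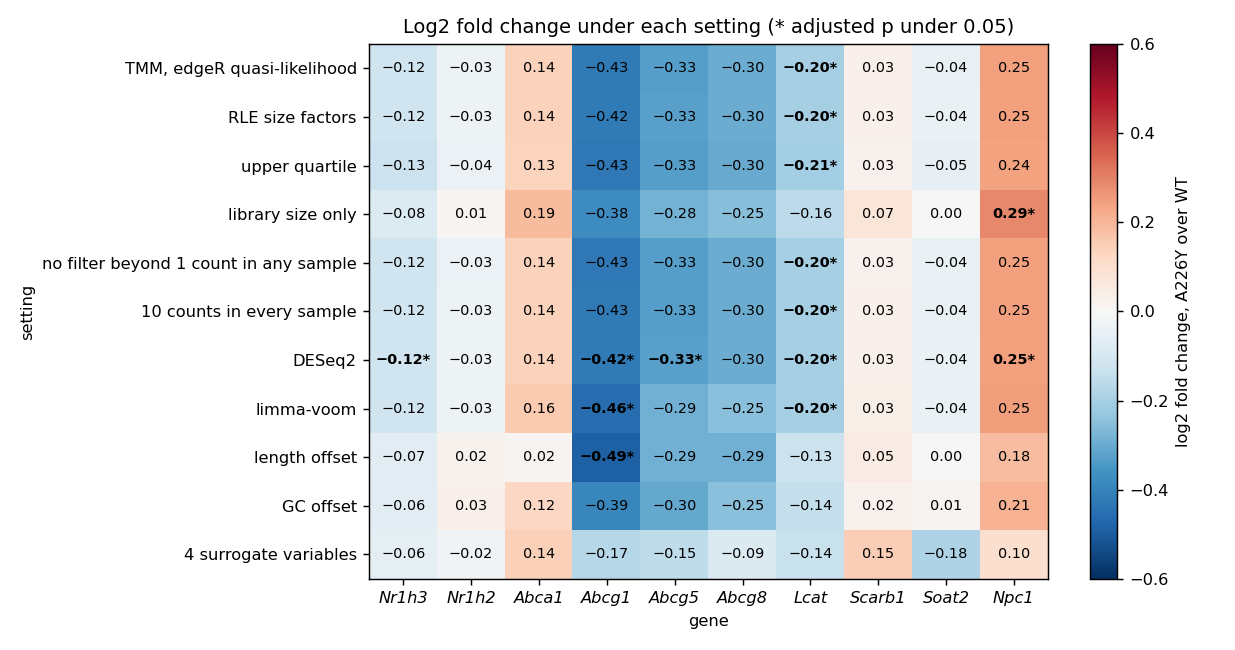
Log2 fold change of A226Y over WT for each gene (columns) under each setting of the test, scaling, filter or offset (rows); colour gives size and sign, and an asterisk an adjusted p under 0.05. *Abca1* and *Npc1* are positive and *Lcat*, *Abcg1*, *Abcg5* and *Abcg8* negative in every row, while the asterisks move between genes.

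*Abca1* carries sites for miR-33, a microRNA of an *Srebf2* intron that is known to repress cholesterol export. MicroRNAs were not measured in these libraries, but the host gene *Srebf2* fell by 0.47 on the log2 scale (56.0 ± 8.51 against 77.7 ± 18.4 CPM, adjusted p = 0.0151, edgeR). The mature sequences of RefSeq lie on the plus strand of chromosome 15, miR-33-5p at chr15:82198127-82198147 and miR-33-3p at chr15:82198167-82198188 (GRCm38.p6). Capitals mark the seed, bases 2 to 8, which differs between the arms:

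miR-33-5p: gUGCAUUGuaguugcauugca

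miR-33-3p: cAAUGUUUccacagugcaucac

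The letters CAATGCA pair with the seed of miR-33-5p. They occur in the 3′ untranslated regions of 3 of the 10 genes, 3 times in *Abca1*, 2 times in *Abcg1* and 1 time in *Soat2*, and in 975 of 13072 tested genes with such a region (7.46%). The untranslated regions of these 3 genes are 3156, 3703 and 522 bases long, while the median of the tested genes is 1159. In *Abca1* the matches that start at bases 135 and 140 of its untranslated region overlap. Each match is printed on the strand of its gene with the 7 bases in capitals, since it shows how closely the sites of *Abca1* and *Abcg1* lie together:

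Abca1, chr4:53033801-53033821, minus strand: tactgacactattCAATGCAa

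Abca1, chr4:53033796-53033816, minus strand: acactattcaatgCAATGCAc

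Abca1, chr4:53033786-53033806, minus strand: atgcaatgcacttCAATGCAa

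Abcg1, chr17:31114989-31115009, plus strand: gactaacgcaacgCAATGCAa

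Abcg1, chr17:31114999-31115019, plus strand: acgcaatgcaacgCAATGCAg

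Soat2, chr15:102163239-102163259, plus strand: tttctgcttctccCAATGCAa

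The 3 genes with these letters had log2 differences of 0.14 (*Abca1*), -0.43 (*Abcg1*) and -0.04 (*Soat2*), and none was called. *Srebf2* and *Abca1* levels gave no correlation that passed the test in either genotype (Pearson's r 0.08 in A226Y and 0.29 in WT mice, adjusted permutation p = 0.893 and 0.708). Without the 2 mice farthest from the median of *Srebf2*, r was 0.44 in 8 A226Y mice and -0.61 in 6 WT mice. The adjusted permutation p was then 0.739 for both, and the sign in WT mice was turned. A match of letters is a description and not a site shown to act.

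LXR and its partner bind DR4 elements, direct repeats spaced by 4 bases, searched as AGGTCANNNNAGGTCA on both strands. An exact copy is in 5 of the 32851 promoter windows (0.0152%) and in none of the 8 windows that match 6 of the 10 genes. The nearest are in the windows of *Abca1* and *Lcat*, each with 3 mismatches, which 21.9% of all windows reach, and the other 6 windows have 4. The *Abca1* match reads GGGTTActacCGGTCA, at position -67 from the start. Whether LXR binds in these windows was not tested, and a count of mismatches to this repeat cannot decide it. The search says nothing about binding elsewhere in the genes.

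Genes whose products act with the receptors were taken next. Of 17 tested LXR partners and cofactors, 3 were called higher and 2 lower (median log2 difference 0.12), beside 7.27% and 7.03% of all tested genes. *Ppargc1a*, a coactivator that rises in fasting, rose by 0.74 on the log2 scale (22.2 against 13.3 CPM, adjusted p = 0.00539, edgeR) and *Nrip1*, a corepressor of nuclear receptors, by 0.29. *Ncoa2*, a coactivator named after its values were seen, rose by 0.22. *Rxrg*, one of the retinoid X receptors, fell by 0.47 and *Hdac3*, the deacetylase of the NCoR corepressor complex, fell by 0.20. The main partner in liver, *Rxra*, had 553 CPM in A226Y and 572 CPM in WT mice and was not called (adjusted p = 0.680). Of the 17, 3 were called without WT mouse 13 (1334 over all genes), without WT mouse 14 (1255) or with the length offset (1548).

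Of 15 other LXR targets, 5 were called and all were lower (median log2 difference -0.38), beside 7.03% of all tested genes called lower. *Srebf1*, which encodes the activator of fatty acid synthesis, fell by 1.22 on the log2 scale (89.8 against 209 CPM, adjusted p = 0.00551, edgeR). *Fasn*, fatty acid synthase, fell by 0.68 and *Pltp*, the phospholipid transfer protein of HDL, by 0.66. *Mlxipl*, which encodes the glucose-sensing factor ChREBP, fell by 0.53 and *Apoe* by 0.41, and both were named after their values were seen. All of these have regulators besides LXR. The other 10 targets were not called. Among them *Mylip*, which marks the LDL receptor for degradation, had a log2 difference of 0.17 (adjusted p = 0.296), and *Lpcat3*, a phospholipid-remodelling enzyme, had -0.17 (adjusted p = 0.185).

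HDL proteins and enzymes were called in both directions, 1 higher and 5 lower of 12, beside 7.27% and 7.03% of all tested genes. *Apoa4*, an apolipoprotein of HDL and chylomicrons, rose by 1.23 (1237 against 529 CPM, adjusted p = 0.0264, edgeR). *Lipc*, hepatic lipase, fell by 0.66 (103 against 164 CPM, adjusted p = 0.0132, edgeR) and *Pltp*, counted here as well, by the same amount. The main HDL protein gene *Apoa1* had 8237 CPM in A226Y and 7729 CPM in WT mice (log2 difference 0.09, adjusted p = 0.783). Without WT mouse 24 or A226Y mouse 32 the count was 2, while calls over all genes went from 1910 to 1310 and 1492. Without A226Y mouse 7, WT mouse 13 or WT mouse 14 it was 3, with 1255 to 1396 calls over all genes.

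Of 18 tested genes of lysosomal and intracellular cholesterol transport, 0 were called higher and 3 lower (median -0.05), beside 7.27% and 7.03% of all tested genes. *Npc2*, the soluble partner that hands cholesterol to NPC1, fell by 0.31 (82.3 against 102 CPM, adjusted p = 0.00556, edgeR), opposite in sign to the *Npc1* difference. *Stard3*, a sterol transfer protein of late endosomes, fell by 0.28 and *Laptm4a*, a lysosomal membrane protein, by 0.23.

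Of 7 tested genes of cholesteryl ester storage and release, 1 was called higher and 3 lower (median -0.42), beside 7.27% and 7.03% of all tested genes. The carboxylesterases *Ces3a*, *Ces1g* and *Ces3b* fell by 1.17, 0.87 and 0.71, and *Nceh1*, a neutral cholesteryl ester hydrolase, rose by 0.29. Carboxylesterase genes are close copies of each other, so their reads may be split between them.

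Oxysterol enzymes make and break the ligands of LXR. Of 8 listed, 5 were tested and 1 was called, beside 14.3% of all tested genes. *Cyp46a1*, the cholesterol 24-hydroxylase, fell by 0.96 (4.09 against 7.90 CPM, adjusted p = 0.0274, edgeR). *Cyp27a1*, the sterol 27-hydroxylase, averaged 420 CPM in A226Y and 414 CPM in WT mice (adjusted p = 0.893). Of the 5, 0 were called without A226Y mouse 7 (1396 over all genes) or WT mouse 21 (1409). Without A226Y mouse 18 (1690 over all genes) or WT mouse 6 (2504), 2 were called.

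Cholesterol synthesis is the SREBP-2 side of the balance. Of 23 tested genes, 0 were called higher and 15 lower, beside 7.03% of all tested genes called lower, with a median log2 difference of -0.69. *Msmo1*, a sterol demethylation enzyme, fell by 1.35 (56.0 against 143 CPM, adjusted p = 0.0432, edgeR) and *Fdps*, which makes farnesyl diphosphate, by 1.34 (13.2 against 33.8 CPM, adjusted p = 0.0112, edgeR). With 1 mouse left out between 8 (without WT mouse 14, with 1255 calls over all genes) and 21 (without A226Y mouse 23, with 1795) of the 23 were called. Counts in all 7 of these lists fell to 0 once 4 surrogate variables were fitted, and then 0.374% of all tested genes were called.

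**Figure D5:**
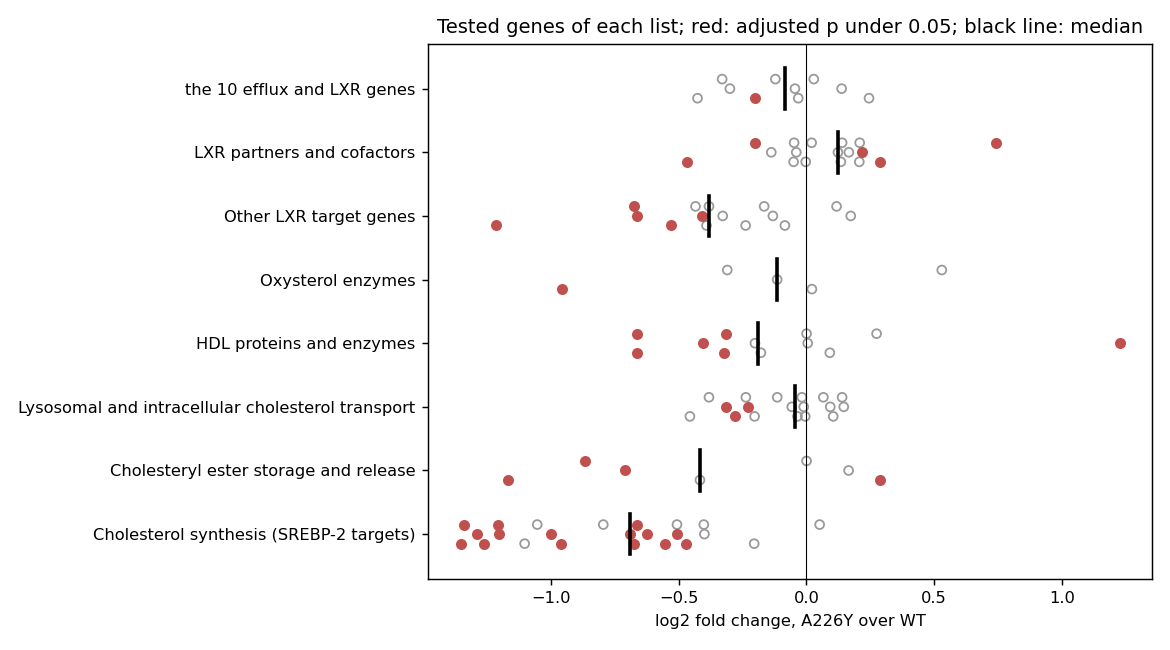
Log2 fold change of A226Y over WT (horizontal axis) for the tested genes of each list (rows); points are genes, red marks an adjusted p under 0.05 and the black line the median of the list. Among these lists, which leave out the cell type markers, medians run from -0.69 for cholesterol synthesis to 0.12 for LXR partners and cofactors, and that of the 10 efflux genes is -0.08.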

How the data were processed

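Liver RNA of each mouse was sequenced as single-end libraries. The authors deposited 1 list of counts per mouse, whole numbers of reads per Ensembl gene, not normalized. The methods name RSEM with an Ensembl annotation, and the submitters' processing notes name bcl2fastq, MultiQC, fastp, STAR, featureCounts and the build GRCm38; which of them made these lists is not stated. Whether counting used strand is not given in the sources used here, so overlapping genes were treated as uncertain. Of 22524 identifiers, 22214 matched GENCODE M21 (GRCm38), which gave names, positions and exon lengths.

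A gene entered the test when 50% or more of the mice of either genotype had 10 counts or more, which left 13353. The quasi-likelihood test of edgeR 4.0.16 (R 4.3.3) compared A226Y with WT without covariates, after TMM scaling, and p-values were adjusted by Benjamini-Hochberg. A standard error is the log2 fold change divided by the square root of F. Single genes and ratios were compared by exact permutation over all 43758 divisions of the mice, and correlations by permutation of pairings (exact in WT, 100000 resamples in A226Y). Only the fits of A226Y against WT, with their offsets and surrogate variables, were tried on simulated data. The permutation, correlation and sequence steps were not. No libraries of 1 genotype were near-duplicates (lowest pairwise chi-square per degree of freedom 19.2). Mice are separate animals. With 182 reads or more per mouse for each of the 10 genes, the precision comes mainly from the spread between mice.

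The genes named are the 10 efflux genes, *Rps2*, *Soat1*, *Srebf2*, and from each list every called gene where at most 4 were called, otherwise the called genes with the 2 highest positive and the 2 lowest negative log2 fold changes, if they averaged 1 CPM or more. Also named are the 3 genes most correlated with *Abca1*, *Abcg5* and *Nr1h3*. Genes that were not called and are given with their values were chosen after the values were seen. The members and lists were chosen with earlier results of these data known. Alternatives were other scalings, filters and tests (DESeq2 1.42.0, limma-voom 3.58.1), 4 surrogate variables (sva 3.50.0), offsets for transcript length or GC content, and leaving out each mouse. Sequences came from RefSeq tables on GRCm38.p6. Other tissues and genotypes of the study were not analysed here.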

Additional observations from a re-analysis of the deposited data

Results flagged for a closer look

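In the 10 efflux genes, *Rps2*, *Soat1*, *Srebf2* and the 3 ratios, 32 groups of mice were tested for a single mouse far from the others by Dixon's test at the 95% level, and 8 were flagged; chance flags about 5% of groups, and genes of one mouse are not independent. A226Y mouse 29 was flagged 4 times. It had 12.2 CPM of *Abcg1*, with the next A226Y mouse at 9.14 CPM, and 56.9 CPM of *Nr1h2*, with the next at 49.9 CPM. Its *Soat2* level was the lowest at 31.7 CPM, with the next at 41.3 CPM, and its ratio of *Nr1h3* to *Nr1h2* was the lowest at 1.93, with the next at 2.43.

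WT mouse 33 had 163 CPM of *Abca1*, with the next WT mouse at 116 CPM, and 12.3 CPM of *Soat1*, with the next at 8.46 CPM. WT mouse 24 had 807 CPM of *Lcat*, with the next at 724 CPM, and 55.4 CPM of *Nr1h2*, with the next at 48.6 CPM. The values without these mice stand beside each of the 10 efflux genes whose call they change.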

How the results depend on the processing

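Of the 10 efflux genes, 5 were called by DESeq2 (18.1% of all tested genes), 2 by limma-voom (1871 of 13353 genes), and 0 with 4 surrogate variables (0.374%) or the GC offset (12.2%), against 1 in the main test (14.3%). The length offset and scaling by library size only also called 1, but a different gene each, *Abcg1* and *Npc1*. Over all genes, 1910 calls became 50 with 4 surrogate variables and 1255 (without WT mouse 14) to 2560 when 1 mouse was left out. With 1 mouse left out, between 0 and 5 of the 10 genes were called. The log2 difference of the *Nr1h3* to *Nr1h2* ratio then ran from -0.11 to -0.04, of *Abcg5* to *Abcg8* from -0.05 to -0.01, and of *Soat2* to *Soat1* from 0.29 to 0.53. The correlation of *Abcg5* with *Abcg8* without the 2 farthest mice was 0.83 in A226Y and 0.94 in WT mice, with an adjusted permutation p of 0.108 for both. No called log2 difference of the 10 efflux genes or *Rps2* changed sign. The differences of *Nr1h2*, *Soat2* and *Scarb1*, which were not called, did change sign. With the GC offset *Nr1h2* had 0.03 and *Soat2* 0.01, and without WT mouse 6 *Scarb1* had -0.02. The cause of each lost or gained call was not tested. No paired analysis was possible because the genotypes share no animal numbers. Among the 10 efflux genes *Abcg1* had the fewest reads, 182 in 1 mouse.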

Other observations

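The genes most like 3 of the members across the 18 mice, after the mean of each genotype was removed, were listed from all tested genes that averaged 1 CPM or more. For *Abcg5* it was *Abcg8* (Pearson's r = 0.941), followed at a distance by *Col12a1* (0.697) and 6030458C11Rik (0.681). For *Abca1* they were *Nos1ap* (0.862), *Dop1b* (0.846) and *Pzp* (0.845). For *Nr1h3* they were *Hsbp1* (0.811), *Snx3* (0.803) and *Tmem88* (0.803). These are descriptions over 18 libraries of liver RNA that differ in depth, and the genes were picked as the highest of all tested genes.

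Markers of the other cell types of liver gave these counts. Of 10 stellate cell and fibroblast markers, 4 were called, all lower, beside 7.03% of all tested genes called lower: the collagens *Col1a1* (log2 difference -0.77), *Col3a1* (-0.60) and *Col1a2* (-0.33), and *Colec11* (-0.30). The other 6 were not called, and among them *Dcn* (0.18) and *Rgs5* (0.23) had positive differences. With 4 surrogate variables 0 of the 10 were called. The summed levels of all 10 markers were 407 to 479.5 CPM in A226Y (median 462) and 396 to 484 CPM in WT mice (median 423). Of 10 sinusoidal endothelial, 7 cholangiocyte, 10 leukocyte and 6 blood and neighbouring tissue markers tested, 0 were called. In other fits 1 leukocyte marker was called without A226Y mouse 29 (2560 over all genes) and 1 cholangiocyte marker with 4 surrogate variables (50 over all genes).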
